A study of Mus musculus with 16 samples.

Results

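Interferon-stimulated and antigen presentation genes were followed in fibro/adipogenic progenitors (FAPs), muscle-resident mesenchymal cells with fibroblast and adipocyte fates. The set was a list of 37 gene symbols, and every probe of a bead array that carried one of these symbols was taken. Of the 37 genes 36 were measured, by 58 of the 25697 probes, and Ifi44 had no probe. The array names 16593 genes in all. Where a gene had several probes, the brightest by its mean over all 16 arrays stood for the gene. The rule uses gene names and no values. Their comparison asks whether interleukin-4 (IL-4), whose receptor alpha chain passes its signal to STAT6, changes the level of these genes in FAPs, and whether any change needs the receptor.

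Cells came from Balb/cJ mice and formed 4 groups of 4 arrays each. These were receptor-deficient (IL4RA -/-) FAPs given IL-4, IL4RA -/- FAPs given vehicle, wild-type FAPs given IL-4, and wild-type FAPs given vehicle, called knockout and wild type below. All cells had been plated in culture before RNA was taken. The series calls the 4 arrays of a group biological replicates. Whether they came from separate mice or cultures is not stated, so p-values measure the spread between these samples. The sources used here give neither the dose and time of IL-4, nor the sex of the mice, the kind of knockout allele, the sort of the cells or which chip an array was on. Arrays are named by the numbers in their titles, which are 5 to 8 for wild-type IL-4 and 1 to 4 in the other groups. If the numbers mark samples, IL-4 and vehicle were given to different samples in wild type and to the same samples in the knockout. The labels do not settle this. In wild type a difference between the sets of samples cannot be told apart from IL-4.

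Values are the authors' normalized values, on a scale read as log2, and ran from 7.72 to 14.77 with a median of 7.85. Many probes lay close to the lower end of this scale, where differences are compressed: 57.0% of all probes, and 9 of the 36 members, had a mean within 0.15 of the array minimum. Of 12 FAP markers 11 were measured and 0 of the 11 lay near that floor, Pdgfra and Dcn among them. Of 13 leukocyte markers 11 lay near it, Ptprc among them, and the exceptions were Lyz2 and Cd14. So did 5 of 7 endothelial and 4 of 6 myogenic markers. Of 7 pericyte and smooth muscle markers only 3 lay near it, and the brightest had a mean of 13.7. Il4ra itself had no named probe, and the genotypes rest on their labels. The wild-type IL-4 arrays stood apart from the other 12 on the first principal component (60.3% of the variance), and knockout vehicle arrays 2 and 3 stood apart on the third (5.39%), at -6.95 and -7.52.

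Type I interferons act through a receptor whose signal brings a complex with STAT2 and IRF9 to the interferon-stimulated response element (ISRE). Interferon gamma acts at gamma-activated sites and induces IRF1, itself an activator of interferon-stimulated genes. The induced proteins block viral replication, tag proteins with ISG15, and supply the immunoproteasome, peptide transporter and class I heavy chains that show peptides to CD8 T cells.

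Promoter sequence was read from RefSeq for assembly GRCm38.p6 as windows of 300 bases, from 250 before to 50 after the annotated start, and 29 of the 36 members had a window. Usp18, Dhx58, Mx2, Rtp4, Parp14, Iigp1 and Tap2 had none. The ISRE core was searched as GAAA, any 2 bases and GAAA, or on the other strand TTTC, any 2 bases and TTTC. It was found in windows of 14 of these 29 members (48.3%), against 3.99% of all 27025 genes and 3.44% of all 32851 windows. A gamma-activated site, searched as TTC, any 3 bases and GAA, which reads the same on both strands, was found in 8 members (27.6%), against 9.55% of all genes and 8.3% of windows. The wider spacing that STAT6 prefers, TTC, any 4 bases and GAA, was found in 4 members (13.8%), against 8.01% of all genes and 6.95% of windows. The motifs were searched separately and may overlap. A match is a description of the letters and not evidence of a bound site. The letters are those of the assembly, and whether Balb/cJ cells carry the same ones was not tested.

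Promoters of 5 members are shown because the results below turn on them: Gbp2, Ifitm3 and Irf1 for their IL-4 response in wild-type cells, and Ifit3 and Isg15 for their spread between arrays. Capitals mark the ISRE core in the first 4 and the gamma-activated site in Irf1, which has 2 windows and no ISRE core in either. The stretch in Isg15 holds 3 overlapping matches, and the 2 matches in Ifitm3 lie just after the annotated start.
Gbp2, chr3:142620413-142620712, plus strand: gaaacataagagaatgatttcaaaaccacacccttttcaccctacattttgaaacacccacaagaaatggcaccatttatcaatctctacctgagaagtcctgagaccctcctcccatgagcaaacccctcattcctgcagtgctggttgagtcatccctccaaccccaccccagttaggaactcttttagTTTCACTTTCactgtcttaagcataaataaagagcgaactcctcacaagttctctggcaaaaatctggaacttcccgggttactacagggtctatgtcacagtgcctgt
Ifitm3, chr7:141010695-141010994, minus strand: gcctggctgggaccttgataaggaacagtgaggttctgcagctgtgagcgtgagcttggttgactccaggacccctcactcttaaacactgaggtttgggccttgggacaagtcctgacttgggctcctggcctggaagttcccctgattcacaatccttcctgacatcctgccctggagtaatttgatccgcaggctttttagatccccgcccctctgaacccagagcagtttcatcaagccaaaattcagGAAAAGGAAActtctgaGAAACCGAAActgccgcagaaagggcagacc
Ifit3, chr19:34583279-34583578, plus strand: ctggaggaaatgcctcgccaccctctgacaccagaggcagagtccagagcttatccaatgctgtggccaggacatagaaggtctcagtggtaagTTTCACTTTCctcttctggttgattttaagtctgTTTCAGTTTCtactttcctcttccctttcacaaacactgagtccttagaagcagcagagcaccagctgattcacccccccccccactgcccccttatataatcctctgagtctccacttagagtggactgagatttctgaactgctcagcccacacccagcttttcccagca
Isg15, chr4:156200769-156201068, minus strand: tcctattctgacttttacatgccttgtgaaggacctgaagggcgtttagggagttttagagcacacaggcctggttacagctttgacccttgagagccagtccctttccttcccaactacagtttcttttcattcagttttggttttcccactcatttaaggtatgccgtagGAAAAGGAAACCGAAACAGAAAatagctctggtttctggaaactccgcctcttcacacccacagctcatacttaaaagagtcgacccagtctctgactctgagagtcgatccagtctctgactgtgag
Irf1, chr11:53769764-53770063, plus strand: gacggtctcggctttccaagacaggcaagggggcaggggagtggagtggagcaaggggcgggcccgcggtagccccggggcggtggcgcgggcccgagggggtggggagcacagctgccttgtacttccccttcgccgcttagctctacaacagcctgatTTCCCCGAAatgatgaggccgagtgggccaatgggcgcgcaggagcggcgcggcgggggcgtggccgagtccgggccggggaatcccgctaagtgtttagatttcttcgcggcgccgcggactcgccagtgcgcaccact

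The first comparison set IL-4 against vehicle in wild-type FAPs. With IL-4, Gbp2, Ifitm3 and H2-D1 were lower and Irf1 was higher. These 4 of 36 members passed the test (limma, Benjamini-Hochberg adjusted p under 0.05 over all 25697 probes). By direction this was 1 member higher, against 6.34% of all probes, and 3 lower, against 7.32%. Together the members' share was 11.1%, against 13.7% of all probes called in either direction. The set as a whole did not change more often than the array did. All probes are a dimmer background than the members, though. Of all probes 57.0% lay near the floor, while 28 of the 36 members were brighter than the median probe. In a fit of the probes brighter than that median alone, 29.9% of them passed. The median change over the 36 members was -0.02 on the log2 scale, against -0.00 over all probes. The median size of the change was 0.042, against 0.019 over all probes, most of them near the floor. The members are therefore taken by role below.

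Among the 6 interferon-inducible GTPases, enzymes that attack the vacuoles of intracellular pathogens, Gbp2 alone passed the test. Gbp2 values were 10.11, 9.76, 9.68 and 9.79 in the wild-type IL-4 arrays, against 10.73, 10.84, 10.72 and 10.74 in the wild-type vehicle arrays. The groups did not overlap, and the highest IL-4 array was well below the lowest vehicle array. Gbp2 fell by 0.92 ± 0.08 (SE, n = 4 each), which is 1.90-fold lower on the scale read as log2 (limma adjusted p = 1.20e-06). This rests on 1 of 3 Gbp2 probes: the other 2, with means of 7.98 and 7.80, differed by -0.06 (limma adjusted p = 0.393) and 0.04 (limma adjusted p = 0.0971).

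Gbp3, a related guanylate-binding protein gene, had 8.44, 8.35, 8.19 and 8.28 in the wild-type IL-4 arrays, against 8.69, 8.61, 8.45 and 8.53 in wild-type vehicle arrays. These groups did not overlap either, though their nearest arrays all but met, and the difference of -0.25 did not pass (limma adjusted p = 0.171). The other 4 GTPase genes, Gbp7, Igtp, Irgm1 and Iigp1, had differences of -0.04 to 0.19, and none passed. Irgm1, which regulates autophagy of pathogens, was the one at 0.19 (limma adjusted p = 0.185).

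Of 13 antiviral effectors Ifitm3 alone passed. Ifitm3 encodes a membrane protein that restricts entry of enveloped viruses. Its values were 12.74, 12.74, 12.65 and 12.58 in the wild-type IL-4 arrays, against 13.19, 13.04, 12.95 and 12.85 in wild-type vehicle arrays. The 2 groups did not overlap. Ifitm3 fell by 0.33 ± 0.07 (SE, n = 4 each, limma adjusted p = 0.00620). It has 1 probe here, and its close relative Ifitm2, which was not a member, also fell, by 0.41 ± 0.06 (limma adjusted p = 0.000226); whether the 2 probes read both transcripts was not tested.

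The other 12 effectors, among them the OAS-like gene Oasl2, the viperin gene Rsad2, the GTPase gene Mx2 and the Ifit RNA-binding proteins, did not pass. Ifit2 had 7.88, 8.003, 7.96 and 7.96 in wild-type IL-4 arrays, against 8.02, 8.002, 8.04 and 8.10 in wild-type vehicle arrays, so the groups just overlapped. These are the values of the brighter of its 2 probes, which differed by -0.09, while the other differed by 0.03. Ifit3 differed by -0.30 (limma adjusted p = 0.623). Wild-type IL-4 array 5, at 8.56, lay inside the range of the vehicle arrays, and the other wild-type IL-4 arrays lay below that range. Ifit1 lay at the floor, between 7.77 and 7.84 on all 16 arrays. Parp14, an ADP-ribosyltransferase known in B cells as a STAT6 cofactor, differed by 0.21 in the other direction (limma adjusted p = 0.485).

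Irf1 was the one transcription factor of 4 that passed, and the one member that rose. Its values were 10.16, 10.10, 10.34 and 10.23 in the wild-type IL-4 arrays, against 9.93, 9.88, 9.75 and 9.95 in wild-type vehicle arrays. All 4 IL-4 arrays were above all 4 vehicle arrays. The rise was 0.33 ± 0.07 (SE, n = 4 each, 1.26-fold, limma adjusted p = 0.00338). The second brightest of the 5 Irf1 probes rose too, by 0.20 (limma adjusted p = 0.0332), and the other 3 did not pass. Irf7, Irf9 and Stat2, which act downstream of type I interferon, had differences of -0.07 to 0.08 and did not pass.

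The 5 members of the ISG15 system and of cytosolic RNA sensing (Isg15, its protease gene Usp18, and Trim25, Dhx58 and Ifih1) had 0 calls. Dhx58, which encodes the RNA sensor LGP2, had 8.06, 8.05, 8.0001 and 7.98 in wild-type IL-4 arrays, against 8.36, 8.16, 8.10 and 8.10 in wild-type vehicle arrays. The groups did not overlap, and its difference of -0.16 did not pass (limma adjusted p = 0.252). Ifih1, which encodes the RNA sensor MDA5, lay at the floor, between 7.76 and 7.83 on all 16 arrays.

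Of 8 antigen processing and presentation members H2-D1, a class I heavy chain gene, passed. Its values were 7.98, 8.01, 8.003 and 8.03 in the wild-type IL-4 arrays, against 8.16, 8.10, 8.16 and 8.19 in wild-type vehicle arrays. The groups did not overlap, but both lay near the lower end of the scale and their means were 0.15 apart. H2-D1 fell by 0.15 ± 0.03 (SE, n = 4 each, limma adjusted p = 0.00113). Class I heavy chain genes are close copies of one another and vary between mouse strains, so what this single probe reads in Balb/cJ cells is uncertain. H2-K1, another heavy chain gene, had 10.39, 10.18, 10.07 and 9.92 in wild-type IL-4 arrays, against 10.27, 10.32, 9.99 and 10.30 in wild-type vehicle arrays, and these overlapped throughout.

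B2m, the light chain shared by all class I molecules, had 13.24, 13.24, 13.14 and 13.28 in the wild-type IL-4 arrays, against 13.43, 13.25, 13.14 and 13.38 in wild-type vehicle arrays. Its difference of -0.08 did not pass, nor did that of a second bright B2m probe, at 0.13 (limma adjusted p = 0.306). Tap1, Tap2, Tapbp, Psmb8 and Psmb9, which encode the peptide transporter, tapasin and immunoproteasome subunits, had differences of -0.04 to 0.08 and 0 calls. Counting all roles, 6 of 36 members had groups that did not overlap, 1 higher against 7.41% of all probes and 5 lower against 8.92%, with 16.3% of all probes in either direction.

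**Figure D1:**
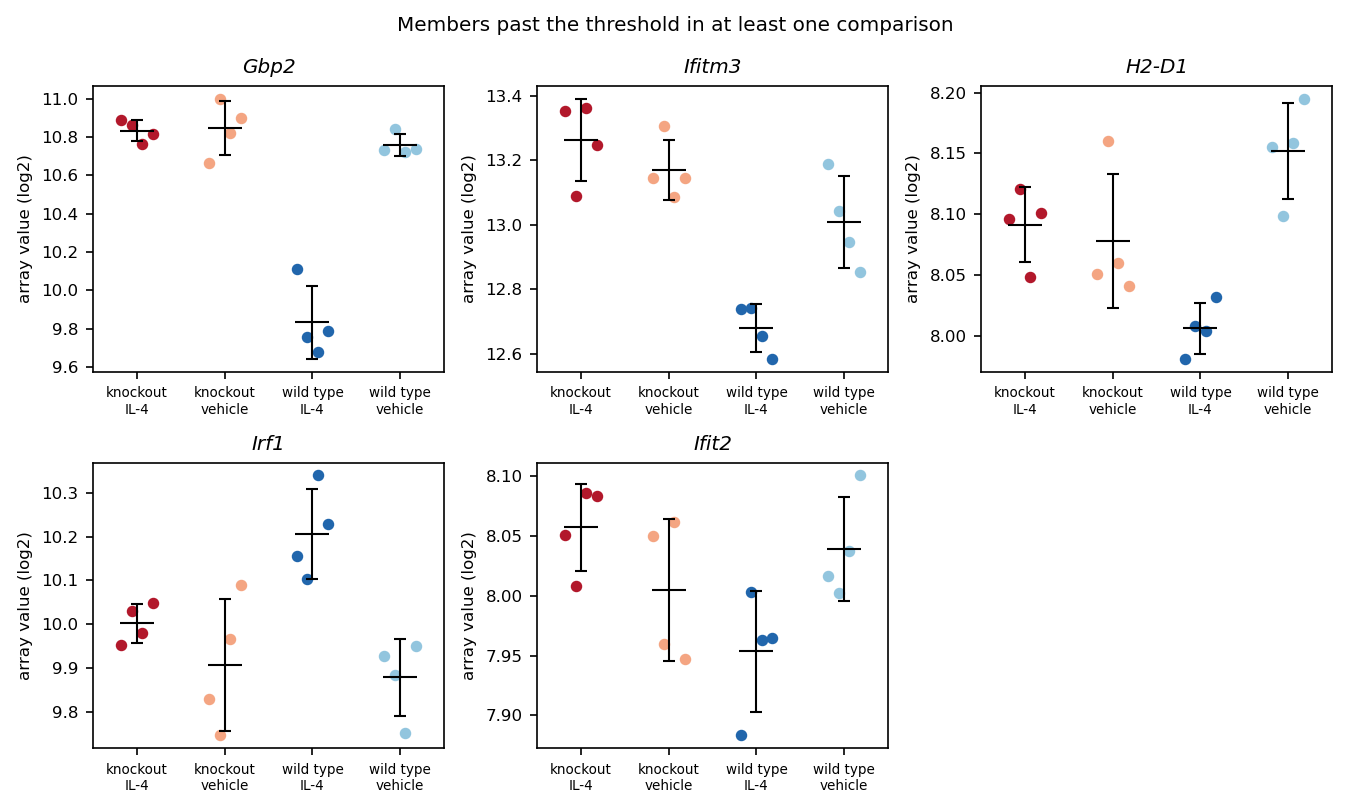
Array values (log2) of the 5 members that passed in at least one comparison, with knockout IL-4, knockout vehicle, wild-type IL-4 and wild-type vehicle arrays from left to right. Points are single arrays, and bars give the mean and SD of 4 arrays. Gbp2 and Ifitm3 are lowest in the 4 wild-type IL-4 arrays, and Irf1 is highest there.

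In knockout cells IL-4 gave 0 calls among the 36 members, against 0% of all probes (limma adjusted p under 0.05). The smallest adjusted p of a member was 0.863. At an unadjusted p under 0.05 there was 1 member, B2m, against 5.60% of all probes. Knockout groups overlapped for all 36 members, against 2.81% of all probes with groups that did not.

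B2m values were 13.25, 13.55, 13.59 and 13.43 in the knockout IL-4 arrays, against 13.24, 13.21, 13.15 and 13.42 in knockout vehicle arrays. Its difference was 0.20 (95% confidence interval 0.03 to 0.37), and 3 of the 4 IL-4 arrays were above every vehicle array. The second bright B2m probe differed by 0.03 (limma adjusted p = 0.978). Gbp2 had 10.89, 10.86, 10.76 and 10.82 in the knockout IL-4 arrays, against 10.67, 10.999, 10.82 and 10.90 in knockout vehicle arrays. The IL-4 arrays lay inside the range of the vehicle arrays, and the difference was -0.01 (95% confidence interval -0.19 to 0.16).

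Ifitm3 had 13.35, 13.09, 13.36 and 13.25 in the knockout IL-4 arrays, against 13.14, 13.30, 13.09 and 13.14 in knockout vehicle arrays, which overlapped. Irf1 had 9.95, 10.03, 9.98 and 10.05 in knockout IL-4 arrays, against 9.83, 9.75, 9.97 and 10.09 in knockout vehicle arrays, so the vehicle arrays reached further in both directions. H2-D1 had 8.10, 8.12, 8.05 and 8.10 in knockout IL-4 arrays, against 8.05, 8.16, 8.06 and 8.04 in knockout vehicle arrays, and these too overlapped. The 95% interval of the knockout response was -0.06 to 0.25 for Ifitm3 and -0.05 to 0.24 for Irf1. Over the set, the interval lay within 0.5 of 0 for 35 of 36 members. The exception was Ifit3, at -0.41 to 0.72.

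**Figure D2:**
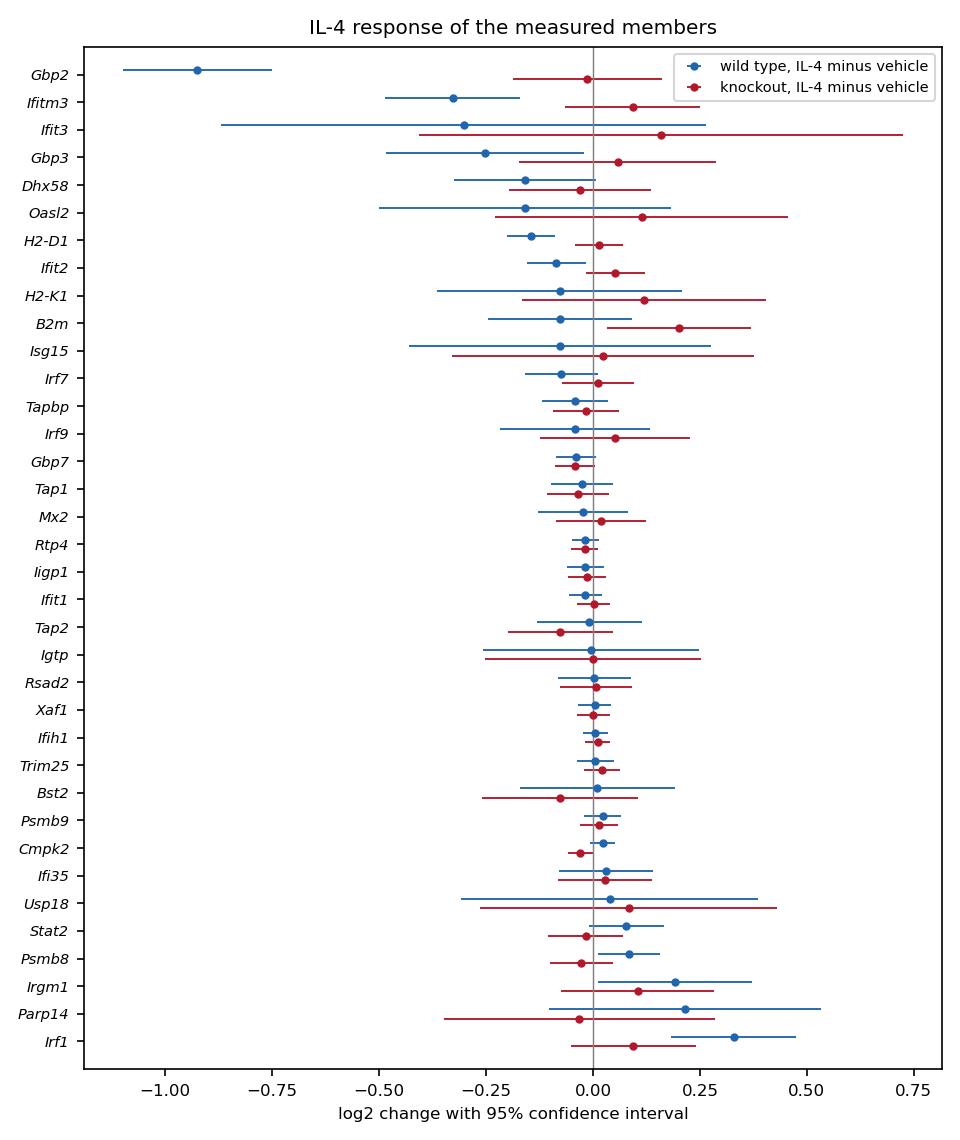
Difference between IL-4 and vehicle (log2, with its 95% confidence interval) for each of the 36 measured members, for wild-type cells in blue and knockout cells in red. In wild type Gbp2 lies farthest to the left, at -0.92, and Irf1 farthest to the right, at 0.33, while the knockout interval of each includes 0.

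Whether the response differed between genotypes was tested as the wild-type minus the knockout response. Gbp2, Ifitm3 and H2-D1 passed, all with a lower response in wild type, which is 3 of 36 members lower, against 4.35% of all probes lower and 8.39% in either direction. Gbp2 responded by -0.92 in wild type and by -0.01 in knockout cells, a difference of -0.91 ± 0.12 (SE, limma adjusted p = 9.60e-05). Ifitm3 responded by -0.33 in wild type and by 0.09 in knockout cells, a difference of -0.42 ± 0.10 (SE, limma adjusted p = 0.0194). H2-D1 responded by -0.15 in wild type and by 0.01 in knockout cells, a difference of -0.16 ± 0.04 (SE, limma adjusted p = 0.0135).

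The rise of Irf1 was not shown to differ between genotypes. It responded by 0.33 in wild type and by 0.09 in knockout cells, and the difference of 0.23 did not pass (limma adjusted p = 0.193). These differences share arrays with the comparisons above and are not independent of them. They also set a wild-type response between differently numbered arrays against a knockout response between same-numbered ones.

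Under vehicle, knockout and wild-type cells gave 0 calls among the 36 members, against 2.69% of all probes (limma adjusted p under 0.05). The smallest adjusted p was 0.196, and 2 of 36 members had an unadjusted p under 0.05, against 13.6% of all probes. No member had groups that did not overlap, against 8.06% of all probes. Gbp2 averaged 10.85 ± 0.14 in knockout vehicle arrays and 10.76 ± 0.06 in wild-type vehicle arrays (SD, n = 4 each). Ifitm3 averaged 13.17 ± 0.09 in knockout vehicle arrays and 13.01 ± 0.14 in wild-type vehicle arrays (SD, n = 4 each), and the difference of 0.16 did not pass (limma adjusted p = 0.349). Without knockout vehicle array 2, H2-D1 passed as lower in knockout, by 0.10 (limma adjusted p = 0.0306). The count was then 1, against 2.04% of all probes.

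Under IL-4, 4 of 36 members were higher in knockout than in wild-type cells, against 7.7% of all probes higher and 14.9% in either direction. They were Gbp2, Ifitm3, Ifit2 and H2-D1. Gbp2 was 0.999 ± 0.08 higher in knockout (SE, n = 4 each), which is 2.00-fold (limma adjusted p = 4.36e-07). A second Gbp2 probe passed too, at 0.11 (limma adjusted p = 0.0404), and the third did not, at -0.02. Ifitm3 was 0.58 ± 0.07 higher (limma adjusted p = 4.41e-05). The knockout IL-4 arrays lay above all wild-type IL-4 arrays for both genes, as the values given above show.

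The calls of Ifit2 and H2-D1 were close to the threshold. Ifit2 had 8.05, 8.01, 8.09 and 8.08 in the knockout IL-4 arrays, against 7.88, 8.003, 7.96 and 7.96 in wild-type IL-4 arrays, and its knockout vehicle arrays read 8.05, 7.96, 8.06 and 7.95. The knockout IL-4 arrays were the higher ones throughout, though the nearest arrays all but met. The difference was 0.10 ± 0.03 for Ifit2 (SE, limma adjusted p = 0.0419) and 0.09 ± 0.03 for H2-D1 (SE, limma adjusted p = 0.0406). The second Ifit2 probe did not pass, at 0.04 (limma adjusted p = 0.378). Both calls were lost under cyclic loess normalization (adjusted p of 0.0552 for Ifit2 and 0.0688 for H2-D1) and at an adjusted p of 0.01, and that of H2-D1 also under a trended and robust variance (adjusted p = 0.0523). Each call was lost without any 1 of 8 arrays: knockout IL-4 1, 3 or 4, wild-type IL-4 5, 7 or 8 and wild-type vehicle 1 or 3 for Ifit2, with adjusted p up to 0.131, and knockout IL-4 1, 2 or 4, wild-type IL-4 5, 6 or 7 and wild-type vehicle 1 or 3 for H2-D1, with adjusted p up to 0.116. The count of members was 2 without knockout IL-4 array 4, wild-type IL-4 array 5 or wild-type vehicle array 1, and 7 without knockout vehicle array 2. In the same order, 13.6%, 13.8%, 14.5% and 15% of all probes passed in these fits.

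Irf1 was lower in knockout by 0.20 under IL-4, with groups that did not overlap, and did not pass on its brightest probe (limma adjusted p = 0.0589). The next brightest Irf1 probe did pass, at -0.29 (limma adjusted p = 0.00286). Psmb8, an immunoproteasome subunit, had 7.89, 7.93, 7.94 and 7.94 in knockout IL-4 arrays, against 8.06, 8.05, 7.98 and 8.01 in wild-type IL-4 arrays. Its groups did not overlap and its difference of -0.10 did not pass (limma adjusted p = 0.0720). By overlap alone, 4 members were higher, against 8.86% of all probes, and 2 were lower, against 8.3%, with 17.2% of all probes in either direction.

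The spread between arrays of one group was wider for these genes than for most of the array. The median SD over the 4 arrays of a group was 0.0632 for the members in knockout IL-4, against 0.0260 for all probes. It was 0.0937 against 0.0280 in knockout vehicle, 0.0654 against 0.0270 in wild-type IL-4, and 0.0584 against 0.0260 in wild-type vehicle. The difference remained among the brighter probes, to which 28 of the members belong: there the members' median was 0.0766 against 0.0430 in knockout IL-4 and 0.126 against 0.0499 in knockout vehicle. In wild-type cells it was 0.0875 against 0.0497 under IL-4 and 0.0848 against 0.0425 under vehicle. An SD above 0.2 was found for 4 members in knockout IL-4, 9 in knockout vehicle, 3 in wild-type IL-4 and 0 in wild-type vehicle, against 0.288%, 0.895%, 0.872% and 0.183% of all probes in the same groups.

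**Figure D3:**
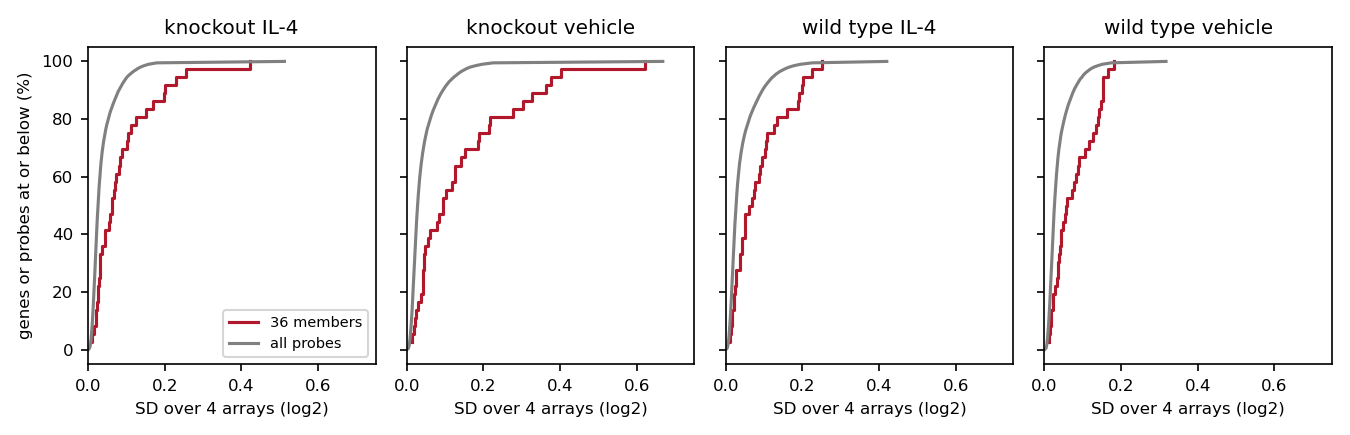
Share of genes or probes (%) at or below a given SD over the 4 arrays of a group (log2), for the 36 members in red and all probes in grey, in 1 panel per group. The red curves lie to the right of the grey ones over most of their length, most of all in knockout vehicle, where the median SD was 0.0937 for members and 0.0280 for all probes.

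The 6 members with the widest spread were Ifit3, Usp18, Isg15, Parp14, Igtp and H2-K1. Ifit3, an antiviral effector of the IFIT family, had 8.55, 8.36, 8.72 and 9.34 in the knockout IL-4 arrays, against 8.10, 9.50, 8.34 and 8.40 in knockout vehicle arrays. In wild type it had 8.56, 8.09, 8.04 and 8.42 in IL-4 arrays, against 8.85, 8.47, 8.54 and 8.47 in vehicle arrays. One array stood high in each knockout group, array 4 under IL-4 and array 2 under vehicle. The SD was 0.42 in knockout IL-4, 0.62 in knockout vehicle, 0.25 in wild-type IL-4 and 0.18 in wild-type vehicle.

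Isg15, a ubiquitin-like modifier, had 8.10, 8.09, 8.06 and 8.60 in the knockout IL-4 arrays, against 7.97, 8.75, 8.05 and 7.98 in knockout vehicle arrays. In wild type it had 8.35, 8.14, 7.98 and 8.05 in IL-4 arrays, against 8.42, 8.21, 8.10 and 8.10 in vehicle arrays. The same knockout arrays stood high, and in wild type the high ones were IL-4 array 5 and vehicle array 1. Usp18, which removes ISG15 from proteins and dampens the type I interferon receptor, had 8.17, 8.05, 8.30 and 8.59 in knockout IL-4 arrays, against 7.91, 8.73, 8.07 and 8.07 in knockout vehicle arrays. In wild type Usp18 had 8.54, 8.14, 8.14 and 8.31 in IL-4 arrays, against 8.47, 8.25, 8.10 and 8.14 in vehicle arrays. Again knockout IL-4 4, knockout vehicle 2, wild-type IL-4 5 and wild-type vehicle 1 were the highest of their groups.

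Parp14 had 8.92, 8.82, 9.03 and 9.29 in the knockout IL-4 arrays, against 8.83, 9.53, 8.94 and 8.88 in knockout vehicle arrays. In wild type Parp14 had 9.54, 9.29, 9.06 and 9.20 in IL-4 arrays, against 9.26, 9.06, 8.95 and 8.97 in vehicle arrays. Its 4 highest arrays by group were the same ones. Igtp, a GTPase of the immunity-related family, had 8.15, 8.14, 8.23 and 8.51 in knockout IL-4 arrays, against 8.10, 8.58, 8.17 and 8.19 in knockout vehicle arrays. In wild type Igtp had 8.54, 8.15, 8.02 and 8.16 in IL-4 arrays, against 8.32, 8.15, 8.17 and 8.25 in vehicle arrays, with the same order at the top.

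H2-K1 did not share it. It had 10.07, 10.31, 10.12 and 10.08 in the knockout IL-4 arrays, against 9.74, 10.43, 10.07 and 9.86 in knockout vehicle arrays, so array 2 was the highest in both groups.

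**Figure D4:**
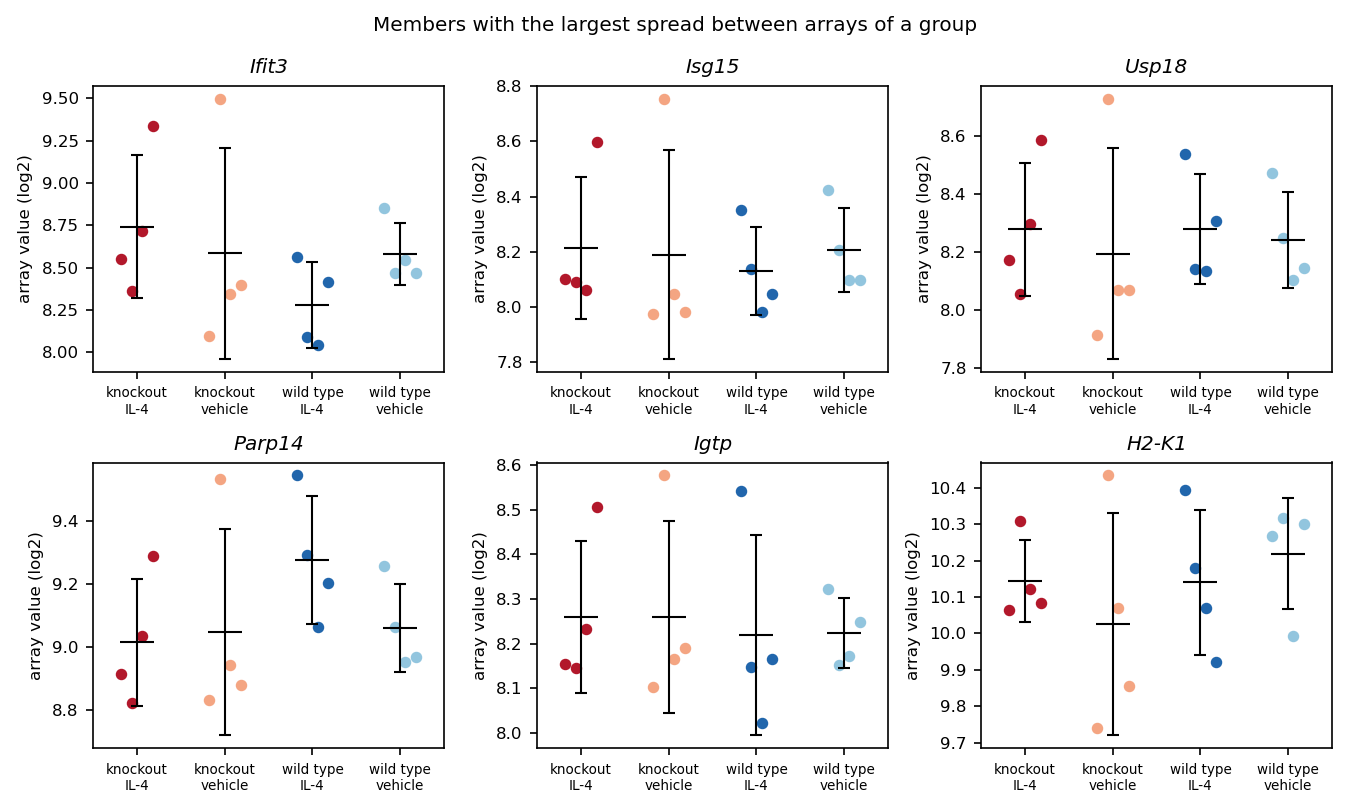
Array values (log2) of the 6 members with the largest median SD within groups, with knockout IL-4, knockout vehicle, wild-type IL-4 and wild-type vehicle arrays from left to right. Points are single arrays and bars give the mean and SD of 4 arrays. One knockout vehicle array, number 2, is above the other 3 in every panel, at 9.50 for Ifit3 and 8.75 for Isg15.

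Counted over the set, knockout IL-4 array 4 was the highest of its group for 21 of 36 members, knockout vehicle array 2 for 29, wild-type IL-4 array 5 for 24 and wild-type vehicle array 1 for 18. Over all probes the same arrays were highest for 26.2%, 25.1%, 28.7% and 25.0%. All 4 of these arrays were highest for 15 members, which is 41.7%, against 0.556% of all probes. These arrays were picked as the ones highest for most members, so the shares describe the members and are no test.

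The 15 were the transcription factors Irf7 and Stat2, the ISG15 and RNA sensing genes Isg15, Usp18 and Dhx58, the effectors Ifit3, Rsad2, Oasl2, Mx2, Bst2, Ifi35 and Parp14, and the GTPases Gbp3, Igtp and Irgm1. By its brightest probe none of the 8 antigen presentation members was among them, nor any of the 5 members that passed a comparison. The second probes of Tapbp and Irf9 were highest on all 4 arrays, although the brightest probes of both genes were not. Of the 15 members 11 had a promoter window, and 8 of the 11 held the ISRE core, against 6 of 18 other members. The 15 members had 8 further probes, and 4 of the 8 were also highest on all 4 arrays. These were the other Usp18 probes, the second Gbp3 probe and 1 further Ifit3 probe. The remaining probes of Ifit3, Oasl2 and Irgm1 were highest on 3 of the 4.

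Knockout vehicle array 2 differed most. Its value minus the mean of the other 3 knockout vehicle arrays had a median of 0.15 over the members and -0.00 over all probes. It was positive for 31 of 36 members (86.1%), against 48.5% of all probes, and above 0.2 for 13 (36.1%), against 1.11%. The largest such difference among all probes was that of Ifit3, at 1.22. Without this array the members' median SD in knockout vehicle was 0.0394, against 0.0260 for all probes. An SD above 0.2 was then found for 0 members, against 1.08% of all probes. Without array 4 the median in knockout IL-4 was 0.0416, against 0.0245 for all probes. Without array 5 it was 0.0477 in wild-type IL-4, against 0.0248, and 1 member was above 0.2, against 0.545% of all probes. Without array 1 it was 0.0467 in wild-type vehicle, against 0.0246. These arrays were picked as the ones highest for most members. The high values of array 2 and the smaller spread without such arrays follow from that choice and are no test.

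**Figure D5:**
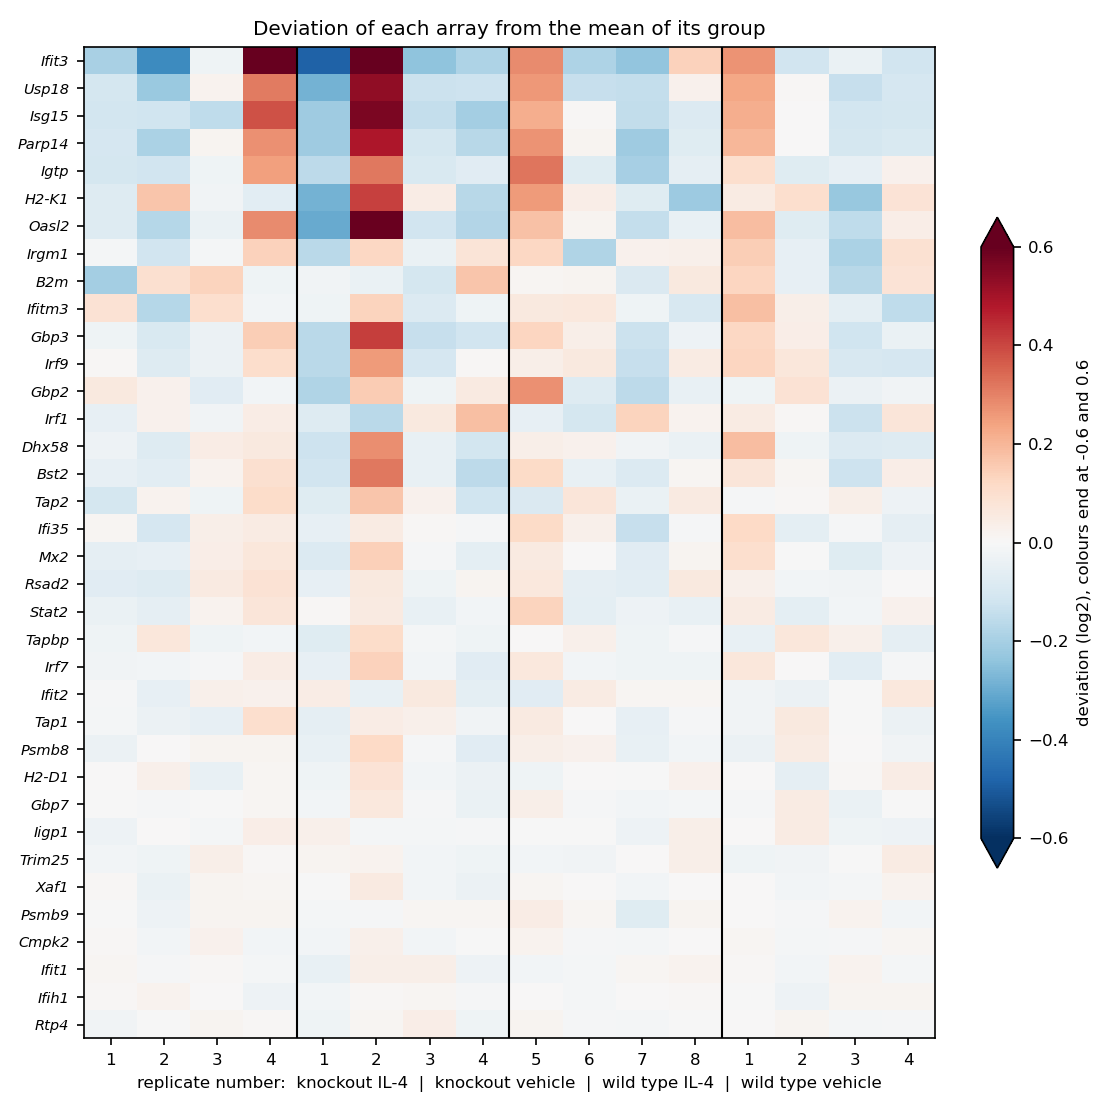
Deviation of each array from the mean of its group (log2, red above and blue below, colours ending at -0.6 and 0.6) for the 36 members, with groups in the order knockout IL-4, knockout vehicle, wild-type IL-4 and wild-type vehicle. A red column marks knockout vehicle array 2, which was the highest of its group for 29 members.

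Genes that could go with this spread were read on the same arrays. Of 6 interferon genes measured (Ifna1, Ifna2, Ifna4, Ifnb1, Ifng and Ifnk) 5 lay near the floor. Array values of the 6 ran from 7.76 to 7.97, with at most 7.95 on knockout vehicle array 2. That value was of Ifna1, the gene off the floor, which read 7.92, 7.95, 7.89 and 7.87 in knockout vehicle arrays. In the other groups Ifna1 was not highest on the arrays that were highest for most members. Near the floor differences are compressed, so a difference in interferon RNA between arrays could go unseen and was not tested. The mean over the 13 leukocyte markers was 7.97 to 8.01 in knockout IL-4 arrays and 7.97 to 8.002 in knockout vehicle arrays. It was 7.87 to 7.89 in wild-type IL-4 arrays and 7.96 to 7.97 in wild-type vehicle arrays, with Ptprc and Itgam near the floor. The lower level in wild-type IL-4 goes with Lyz2, which fell by 1.07 there. The leukocyte mean was the highest of its group on knockout vehicle array 2 (8.002) and wild-type IL-4 array 5 (7.89). It was the lowest of its group on knockout IL-4 array 4 (7.97) and wild-type vehicle array 1 (7.96). The part of other cells in the results above was not tested, and fewer cells of a type and less RNA per cell cannot be told apart in these samples.

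The rest of the pathway was read from 3 further lists. Near the floor, where differences are compressed, lay 27 of the 50 other interferon-stimulated genes measured. The same held for 14 of 30 other antigen presentation genes and 14 of 36 interferon sensing and signalling genes. Of 50 other interferon-stimulated genes measured, 2 rose and 1 fell with IL-4 in wild type, against 13.7% of all probes called in either direction, and 0 passed in the knockout. Pml, the scaffold of nuclear bodies, rose by 0.50 ± 0.07 (limma adjusted p = 0.000200) and Samhd1, a nucleotide hydrolase, by 0.28 ± 0.07 (limma adjusted p = 0.00850). The Pml call rests on 1 of 3 probes and the Samhd1 call on 1 of 2. Ifitm2 was the one that fell. The response of Pml was higher in wild type than in knockout by 0.47 ± 0.10 (limma adjusted p = 0.00951), and that of Ifitm2 lower, at -0.45 ± 0.09 (limma adjusted p = 0.00346). Under vehicle 0 of the 50 differed between genotypes, against 2.69% of all probes. Under IL-4 the knockout had 2 higher, Ifitm2 at 0.58 and the chemokine Cxcl9 at 0.41, and 2 lower, Pml at -0.40 and Samhd1 at -0.22. Of all probes 14.9% passed there in either direction. Oas1g, Irgm2, Phf11d and Uba7 were the 4 of the 50 that were highest on the same 4 arrays.

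Of 30 other antigen presentation genes 2 rose, against 6.34% of all probes, and 6 fell, against 7.32%, with IL-4 in wild type, and 0 passed in the knockout. Calr and Pdia3, chaperones of the endoplasmic reticulum that also load class I molecules, rose by 0.97 ± 0.11 (limma adjusted p = 1.86e-05) and 0.60 ± 0.09 (limma adjusted p = 0.000264). Both serve the folding of secreted glycoproteins in general. Cd1d1, which presents lipids rather than peptides, fell by 0.93 ± 0.10 (limma adjusted p = 7.16e-06). H2-Ke6, a dehydrogenase gene named for its place in the MHC region, fell by 0.59 ± 0.06 (limma adjusted p = 5.99e-06). The other 4 that fell were Psme2, Nlrc5, H2-Ab1 and H2-DMa, by 0.11 to 0.23. The H2-Ab1 call rests on 1 of 4 probes. The response differed between genotypes for 5 of the 30, against 8.39% of all probes. Calr was at 1.14 ± 0.16 and Cd1d1 at -1.06 ± 0.14 (wild type minus knockout). Under vehicle 1 gene, Cd74, was higher in knockout, by 0.08, against 2.69% of all probes in either direction. Under IL-4 6 were higher in knockout, against 7.7% of all probes, and 4 lower, with 14.9% in either direction.

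Of 36 interferon sensing and signalling genes 2 rose and 2 fell with IL-4 in wild type, against 13.7% of all probes in either direction, and 0 passed in the knockout. Jak2, a kinase of the interferon gamma receptor, rose by 0.33 ± 0.07 (limma adjusted p = 0.00658) and Ticam1, a Toll-like receptor adaptor, by 0.07 ± 0.02 (limma adjusted p = 0.0378). Irf3, which switches on interferon genes, fell by 0.28 ± 0.08 (limma adjusted p = 0.0200) and Pias1, a SUMO ligase, by 0.16 ± 0.04 (limma adjusted p = 0.0205). The Jak2 and Irf3 calls rest on 1 of 3 probes and the Ticam1 call on 1 of 2. For Pias1 the response differed between genotypes (-0.25 ± 0.06, limma adjusted p = 0.0211). Under vehicle the feedback inhibitor Socs3 was 0.31 ± 0.07 and the receptor chain Ifngr1 0.24 ± 0.06 higher in knockout (limma adjusted p = 0.0305 and 0.0445). Under IL-4 6 were higher in knockout and 4 lower, against 14.9% of all probes in either direction.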

How the data were processed

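RNA of plated FAPs was purified on RNeasy columns, labelled with Cy3 and hybridised to 16 Illumina MouseRef-8 v2.0 arrays, per the labels. The authors deposited 1 normalized value per probe and array. The log2 unit was inferred from the deposited values, and a transform close to log2 at high values alone cannot be told from it, so every fold holds under that reading. The sorted values of the arrays were the same to within 0.00059, the mark of a quantile normalization. The software, the background correction and detection calls are not given in the sources used here. Arrays were grouped by their titles, and 23978 probes had 1 symbol in the platform annotation.

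With R 4.3.3 and limma 3.58.1, a mean per group was fitted over all 16 arrays and 25697 probes (12 residual degrees of freedom, moderated by empirical Bayes). Two-sided p-values of 5 contrasts were adjusted by Benjamini-Hochberg, with a threshold of 0.05. The same code was tested on simulated data. The number of arrays limits the precision. Members, lists and rules were chosen with earlier results of these data known. All array values are given for members past the threshold, the 6 with the largest spread and the brightest, and ranges for the dimmest. Gbp3, Dhx58 and Psmb8 were named after their values were seen. From other lists up to 2 genes higher and 2 lower per contrast were named by size, besides short counts named in full. Alternatives were other scalings, filters, variance models, thresholds, a replicate block and each array left out. Figures used matplotlib 3.10.9.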

Additional observations from a re-analysis of the deposited data

Results flagged for a closer look

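With 144 pairs of member and group examined, a sample far from the other 3 of its group was found in 12, where chance gives about 1 in 20, or 7.2. Of these, 4 were knockout vehicle array 2 standing high: Isg15 at 8.75, Parp14 at 9.53, Gbp3 at 8.86 and H2-D1 at 8.16. In knockout IL-4, Isg15 stood high on array 4, at 8.60, Tapbp stood high on array 2, at 8.28, and Xaf1 stood low on array 2, at 7.79. In wild-type IL-4, Irf7 and Stat2 stood high on array 5, at 7.91 and 8.25, and Irf9 stood low on array 7, at 8.27. In wild-type vehicle, Gbp2 stood high on array 2, at 10.84, and H2-K1 stood low on array 3, at 9.99.

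The IL-4 response differed between genotypes in a test of the difference itself for 3 members. The wild-type minus the knockout response was -0.91 for Gbp2, -0.42 for Ifitm3 and -0.16 for H2-D1.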

How the results depend on the processing

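Of single-gene values under the alternatives, 1796 kept their direction and side of the threshold or were uncalled throughout. A further 19 newly passed and 23 no longer passed. Of values that passed in either fit 0 reversed, and changes of sign in uncalled values were not counted. Gbp2 kept its call under all 26 alternatives in wild-type IL-4, in the difference of responses and between genotypes under IL-4. All 26 read the same Gbp2 probe, so they do not bear on its other probes. Median centring left the counts over all probes unchanged, and choosing the probe with the smallest p favours a call by design. Irf1, Ifitm3 and H2-D1 kept their calls in wild-type IL-4, while Ifitm3 and H2-D1 lost the difference of responses at an adjusted p of 0.01. There 1 member was left, and 4.93% of all probes passed. Between genotypes under IL-4 the count was 7 in the brighter probes, where 32.5% of probes passed, 2 at an adjusted p of 0.01, where 10.1% passed, and 7 without knockout vehicle arrays 2 and 3, where 15.4% passed, a setting chosen after seeing the data; the cause was not tested.

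Leaving out each array gave 4 to 6 members in wild-type IL-4, 0 to 0 in knockout IL-4, 3 to 4 for the difference of responses, 0 to 1 under vehicle and 2 to 7 under IL-4. In the same order, the share of all probes called was 11.7% to 14%, 0%, 7.18% to 8.7%, 1.66% to 3.2% and 12.6% to 15.2%. The median SD of the members ranged from 0.0416 to 0.0700 in knockout IL-4, 0.0394 to 0.109 in knockout vehicle, 0.0477 to 0.0666 in wild-type IL-4 and 0.0467 to 0.0666 in wild-type vehicle. Over all probes, an adjusted p of 0.01 left 245 of 690 calls under vehicle and 1266 of 2156 for the difference of responses.

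The replicate number as a block gave 0 members in knockout IL-4, 3 for the difference of responses and 0 under vehicle. Of all probes 0%, 7.88% and 1.38% passed in these fits, with 354 of 25697 probes under vehicle instead of 690. Same-numbered arrays did not deviate together (r of -0.22 to 0.14 between the knockout groups and -0.08 to 0.05 between the vehicle groups). Low correlations cannot tell whether same-numbered samples came from the same mouse or culture. Choosing the probe with the smallest p was not run for the spread. Signal over background limits the 9 members near the floor.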

Other observations

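Apart from the members, 111 of 23920 named probes of other genes (0.464%) were highest on knockout IL-4 array 4, knockout vehicle array 2, wild-type IL-4 array 5 and wild-type vehicle array 1. Over all probes these arrays were highest of their groups for 26.2%, 25.1%, 28.7% and 25.0%. The 0.464% is near the product of these shares, so this count alone shows no shared pattern. The genes below were picked from these probes after their values were seen, and no test is attached. Mrps16, Sptbn1 and Nrap were among the same probes. Samd9l, an interferon-inducible gene, had 9.39, 9.49, 9.44 and 9.73 in knockout IL-4 arrays, against 9.42, 9.84, 9.45 and 9.48 in knockout vehicle arrays. In wild type it had 9.52, 9.35, 9.34 and 9.26 in IL-4 arrays, against 9.74, 9.17, 9.35 and 9.36 in vehicle arrays. Ly6c1, a surface protein gene of the Ly6 family, had 10.27, 10.24, 10.52 and 10.73 in knockout IL-4 arrays, against 10.27, 10.71, 10.37 and 10.53 in knockout vehicle arrays. The complement gene C4b had 11.07, 11.01, 11.04 and 11.19 in knockout IL-4 arrays, against 10.90, 11.34, 10.95 and 11.00 in knockout vehicle arrays. The 2 high knockout arrays were the same as for Isg15 in each of these genes, which follows from how the probes were picked.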
